A study of Homo sapiens with 4 samples.

Results

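The 4 ID genes (ID1, ID2, ID3 and ID4), the inhibitory SMAD genes SMAD6 and SMAD7, and the ligand genes TGFB1, TGFB2 and INHBA were followed in SUM149 cells through 12 h of Ricolinostat. These 9 genes were taken by symbol from the deposited annotation, out of 34755 symbols on the array, and 10 probes carried them, 2 of them for ID2. SUM149 is a cell line established from an inflammatory breast cancer, and Ricolinostat (ACY1215) is an inhibitor of HDAC6, the cytoplasmic deacetylase of α-tubulin. All conditions were profiled with 1 two-colour Agilent array each, namely untreated cells and cells given 2.5 uM of ACY1215 for 3, 6 or 12 h. The Cy5 channel held the sample and the Cy3 channel a reference that the labels describe as RNA pooled from the SUM149 samples. Vehicle-treated cells were not analysed here, so the effects of the drug and of hours in culture cannot be told apart. There was 1 culture per condition, so no test between time points was possible and no value below has a biological error.

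TGF-beta, activin and BMP ligands bind pairs of serine/threonine kinase receptors, which phosphorylate receptor SMADs. These join SMAD4 and enter the nucleus to switch target genes. The ID genes are classic immediate targets of BMP signalling. ID proteins have a helix-loop-helix but no DNA-binding region, and by pairing with E proteins such as TCF3, TCF4 and TCF12 they keep these from DNA. SMAD6 and SMAD7 are feedback inhibitors, SMAD6 mainly of BMP and SMAD7 of both TGF-beta and BMP signals. INHBA encodes the βA subunit of activin A. In mammary epithelium ID proteins are linked to growth and to a block of differentiation, while TGF-beta restrains growth and in advanced tumours favours a mesenchymal state.

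The sequence just before a gene's start was read for 6 short motifs on both strands, over the 250 bases upstream in RefSeq's GRCh38.p14 table, in which all 9 genes matched. The motifs were GTCTAGAC (the palindromic SMAD box), GGCGCC (a GC-rich motif bound by SMAD1 and SMAD5), CAGACA, TGACGTCA (the CREB site) and the E boxes CACGTG and CAGGTG. The 2 genes whose windows are printed first held matches, shown in capitals. The windows of ID2 and ID3 are printed because their log2 changes lay farthest apart among the ID genes.
SMAD6: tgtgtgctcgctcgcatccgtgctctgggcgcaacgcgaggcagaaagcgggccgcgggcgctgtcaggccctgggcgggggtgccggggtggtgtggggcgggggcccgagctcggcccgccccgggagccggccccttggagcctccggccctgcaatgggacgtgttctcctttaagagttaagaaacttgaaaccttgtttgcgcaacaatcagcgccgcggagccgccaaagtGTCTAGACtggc
TGFB2: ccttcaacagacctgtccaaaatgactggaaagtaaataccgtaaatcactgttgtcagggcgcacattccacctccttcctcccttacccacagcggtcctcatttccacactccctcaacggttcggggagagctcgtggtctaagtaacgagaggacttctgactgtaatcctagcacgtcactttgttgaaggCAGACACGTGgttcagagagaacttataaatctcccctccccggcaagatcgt
ID2: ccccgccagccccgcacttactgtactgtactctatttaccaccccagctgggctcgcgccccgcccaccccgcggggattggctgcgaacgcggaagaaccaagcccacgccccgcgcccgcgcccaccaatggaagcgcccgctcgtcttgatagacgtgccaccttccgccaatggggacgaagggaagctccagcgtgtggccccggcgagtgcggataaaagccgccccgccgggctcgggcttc
ID3: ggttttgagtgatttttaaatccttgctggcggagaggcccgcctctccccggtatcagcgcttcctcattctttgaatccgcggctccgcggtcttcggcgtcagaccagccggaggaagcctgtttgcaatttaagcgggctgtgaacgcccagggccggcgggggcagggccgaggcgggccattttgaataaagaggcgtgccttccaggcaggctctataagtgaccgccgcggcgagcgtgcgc
The SMAD6 window (chr15:66701986-66702235, plus strand) held GTCTAGAC, beginning 12 bases before the start. That palindrome stood in 0.182% of the 35116 windows in the table. The TGFB2 window (chr1:218345086-218345335, plus strand) held CAGACA beginning 53 bases before the start and CACGTG beginning 49 bases before it, with 2 letters shared. These stood in 13.6% and 6.34% of all windows. No match to any of the 6 motifs was found in the ID2 window (chr2:8681806-8682055, plus strand) or the ID3 window (chr1:23559502-23559751, minus strand), nor in those of ID1, ID4, TGFB1 and INHBA. One of the 3 windows of SMAD7 held CAGGTG, which stood in 17.5% of all windows. The remaining motifs, GGCGCC and TGACGTCA, stood in 16.4% and 1.65% of windows. A match is a description of letters only.

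Each array held 62976 spots, with a median Cy5 signal of 36 to 40 units over a background of 24 units and 0 saturated spots. Precision is limited by there being only 4 arrays. Areas of damage covered 3.27% of the spots of the untreated array, 4.64% at 3 h, 0.254% at 6 h and 0% at 12 h. Among member spots, 1 of the 10 INHBA spots on the untreated array and 1 on the 3 h array lay in such an area, and no spot of the other genes did. All 7 epithelial and basal markers (KRT5, KRT14, KRT17, KRT18, EGFR, CDH1 and EPCAM) were well above background on all 4 arrays. PGR was above background on 0 arrays and ESR1 on 4, with a Cy5 signal of at most 262 units, although it was listed as absent. Of 10 fibroblast, leukocyte and endothelial markers 8 were above background on all 4 arrays and COL3A1 on 0. Their summed Cy5 signal ran from 1216.5 units at 12 h to 1511.5 units at 3 h, and 0 of them changed 2-fold at any time. Their part in the results was not tested.

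A change is the difference in log2(Cy5/Cy3) between a treated and the untreated array, after background correction and loess normalization. Its technical SD, taken from 300 probes spotted at least 9 times on each array, was 0.153 at 3 h, 0.12 at 6 h and 0.116 at 12 h. Among the dimmer 150 of these probes it was 0.167, 0.13 and 0.128. Except for INHBA, a member probe had a single spot, and this SD stands in for its own error. On each of the 4 arrays all 10 member probes stood well above background in Cy5 and in Cy3, so no member was lost to the filter on dim probes.

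ID2 was higher and ID3 lower than in untreated cells on each of the 3 treated arrays, TGFB2 and INHBA fell most at 6 h, and ID4, SMAD6 and SMAD7 stayed within 0.30 (log2) of their untreated levels under this processing, but SMAD6 at 12 h was at -0.47 with median centring, and SMAD7 at 3 h was at 0.38. At 3 h 0 of the 9 members reached a 2-fold change in either direction, where 1.69% of the 20766 genes measured rose and 0.366% fell by that much. At 6 h 0 members rose and 2 fell 2-fold, TGFB2 and INHBA, against 2.81% and 0.939% of 20342 genes. At 12 h 1 member rose 2-fold, ID2, and 0 fell, against 2.34% and 1.12% of 20479 genes. The median log2 change of the members was -0.20, 0.011 and -0.084 at 3, 6 and 12 h, and that of all genes measured was 0.0075, 0.016 and 0.014. Changes larger than the technical SD were seen for 8, 6 and 7 of the 9 members. Over all genes they were seen for 10458 of 20766, 13053 of 20342 and 13273 of 20479, so such a change was common on these arrays. Members differed in direction, and they are described by role. In bulk RNA, fewer cells with a transcript and less of it per cell cannot be told apart. The balance over all genes depended on scaling, since 430 genes rose and 404 fell at 6 h under median centring, and 263 and 704 at 12 h, against 572 and 191 and then 479 and 229 after loess, and the Cy5 channel alone gave 281 and 244 at 3 h, against 351 and 76.

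**Figure D1:**
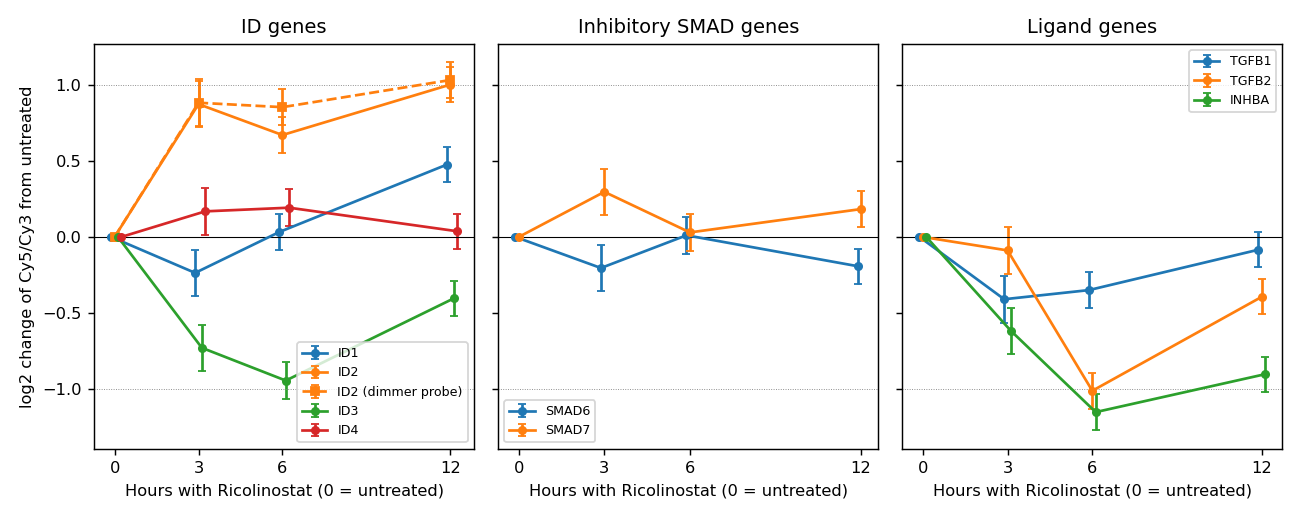
Log2 change of the Cy5/Cy3 ratio from the untreated array against hours with 2.5 uM of Ricolinostat, 1 array per time, in panels for ID genes, inhibitory SMAD genes and ligand genes. Bars are the technical SD of repeated spots (0.153, 0.12 and 0.116), dotted lines mark 2-fold, the dashed line is the dimmer ID2 probe, and points are offset sideways for legibility. Both ID2 probes lie above 0 and ID3 and INHBA below 0 at all 3 treated times, and TGFB2 dips at 6 h.

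ID2, which restrains E proteins and the retinoblastoma protein, was the member that rose most. On its representing probe the Cy5 signal was 2393 units in untreated cells, 5742 at 3 h, 3748 at 6 h and 4312 at 12 h. The untreated array was the lowest of the 4. The log2 change was 0.87 at 3 h, 0.67 at 6 h and 1.0 at 12 h, which are rises of 1.83-fold, 1.59-fold and 2.0-fold. The 12 h value lay on the 2-fold line itself, and 2.34% of genes were as high. At 3 h 2.71% and at 6 h 7.44% of genes were as high. In the order of the 4 ratios (untreated, 6 h, 3 h, 12 h) the last pair was 0.13 apart, within a technical SD of 0.147. The second ID2 probe gave the same picture. Its Cy5 signal was 1461, 3496, 2291 and 2280 units at 0, 3, 6 and 12 h, and its log2 changes were 0.88, 0.85 and 1.03. The Cy3 reference of the representing probe was itself 0.25, 0.19 and 0.19 higher on the treated arrays, and in the Cy5 channel alone the log2 changes of ID2 were 1.12, 0.86 and 1.19. The 2-fold call at 12 h rests on the processing. With median centring it was 0.67, and it missed the line with a normexp offset of 1 and in the authors' table as well.

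ID3, a close relative that binds the same E proteins, went the other way. Its Cy5 signal was 7367.5 units in untreated cells, 4235 at 3 h, 3110 at 6 h and 4176 at 12 h, so the untreated array was the highest. The log2 changes were -0.73, -0.94 and -0.40, or 1.66-fold, 1.92-fold and 1.32-fold lower, and each exceeded the technical SD. Of all genes measured 1.05% at 3 h, 1.17% at 6 h and 9.71% at 12 h were as low. Its 4 arrays ran in the order 6 h, 3 h, 12 h, untreated, and every neighbouring pair differed by more than its technical SD. ID3 did not pass 2-fold, except at 6 h with median centring (-1.19) and with a normexp offset of 1 (-1.0). The gap between the log2 changes of ID2 and ID3 was 1.60, 1.61 and 1.40 at 3, 6 and 12 h. Its technical SDs were 0.216, 0.17 and 0.164. Over the alternatives that gap never fell below 1.40.

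ID1, the member most often used as a readout of BMP signalling, moved little at first. Its Cy5 signal was 28099.5, 23574, 21776 and 25335 units at 0, 3, 6 and 12 h, and these raw signals were lower on all 3 treated arrays. After normalization the log2 change was -0.24 at 3 h, 0.032 at 6 h and 0.47 at 12 h. The change at 6 h was within the technical SD and turned its sign under 4 of 10 alternatives. The 12 h value was 0.28 in the Cy5 channel alone and -0.0062 with median centring, where the median of all genes was -0.16, so the direction at 12 h rests on how the arrays were scaled. The log2 change of ID1 was below that of ID2 by 1.11, 0.64 and 0.52 at the 3 times, in that order.

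ID4, an ID protein often silenced in tumours, gave a dim signal. In untreated cells its Cy5 signal was 69 units, and it was 80 at 3 h, 58 at 6 h and 53.5 at 12 h, over a local background of 23 to 25 units. The log2 changes were 0.17, 0.19 and 0.038. No neighbouring pair in its order of arrays differed by more than the technical SD, and the sign at 6 h and 12 h depended on the processing. Against the technical SDs of the dimmer probes given above, the change at 3 h was level (0.168 and 0.167). That at 6 h was larger and that at 12 h smaller. At 6 h the Cy3 reference of ID4 was 0.25 lower, while its Cy5 channel moved by -0.057.

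The inhibitory SMAD genes stayed within a narrow range. SMAD6, whose window carries the palindrome printed above, had Cy5 signals of 292.5, 258, 228 and 180 units at 0, 3, 6 and 12 h. Its log2 changes were -0.20, 0.011 and -0.19. The raw signal thus went down at each later time, while the normalized ratio put the 6 h array level with the untreated array. In the Cy5 channel alone the changes were -0.22, -0.16 and -0.37, and the Cy3 reference was 0.17 lower at both 6 h and 12 h. SMAD7, the inhibitor with the wider reach, had Cy5 signals of 335, 344.5, 290.5 and 286 units. Its log2 changes were 0.30, 0.030 and 0.18. At 3 h its Cy3 reference was 0.32 lower while its Cy5 channel moved by -0.022. Over repeated spots the log2 change in Cy3 alone had an SD of 0.283 at 3 h. What lowered Cy3 at this spot was not tested. The log2 change of SMAD7 was above that of SMAD6 by 0.50 at 3 h and 0.37 at 12 h. At 6 h it was above by 0.019, and the sign of this gap turned in 1 of 9 alternatives. Over these the 3 h gap ran from 0.199 to 0.605.

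INHBA had the largest root mean square change of the members (0.917) and the best measured one, since its probe was spotted 10 times per array. Its Cy5 signal averaged 13236 ± 1844 units (SD over 9 spots) in untreated cells, 9134 ± 1082 (8 spots) at 3 h, 4297 ± 566 (10 spots) at 6 h and 4654 ± 455 (10 spots) at 12 h. The lowest untreated spot, at 10212 units, was above the highest spot at 6 h, at 5285 units, and at 12 h, at 5252 units. Untreated and 3 h spots overlapped in raw signal, since the highest spot at 3 h was at 10769 units. They did not overlap in the log2 ratio, which ran from 3.75 to 4.08 in untreated cells and from 3.14 to 3.35 at 3 h. The log2 change over spots was -0.62 ± 0.101 (SD, 8 spots) at 3 h, -1.15 ± 0.114 (9 spots) at 6 h and -0.91 ± 0.104 (9 spots) at 12 h. On the mean of the spots it was 1.53-fold, 2.22-fold and 1.87-fold lower. These spots repeat 1 RNA on 1 array, so the SD covers the array and not the cells. At 6 h 0.536% of genes were as low. The fall reached 2-fold at 6 h in all 10 alternatives, from -1.15 to -1.41, and at 12 h in 3 of them. The alternatives on damaged areas, dim probes and probe choice left its values unchanged.

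**Figure D2:**
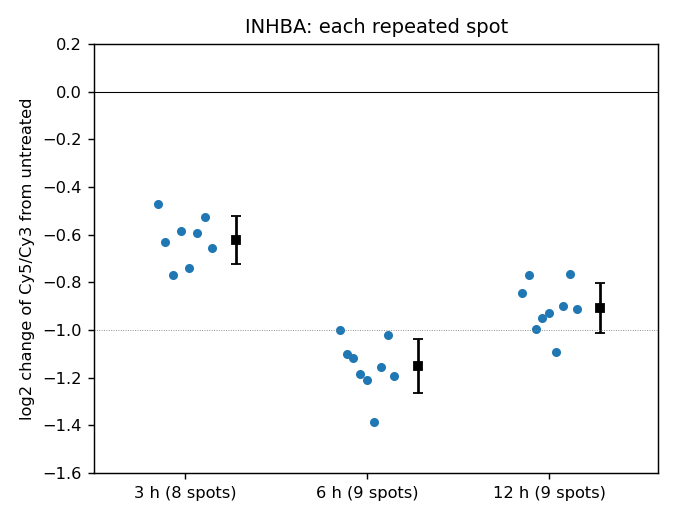
Log2 change of the Cy5/Cy3 ratio of INHBA from the untreated array for each spot of its probe that was usable on both arrays, at 3, 6 and 12 h of Ricolinostat, with the mean and SD over spots as black squares with bars and 2-fold as a dotted line. All spots lie below 0 at every time, between -0.77 and -0.47 at 3 h, between -1.39 and -1.0 at 6 h and between -1.09 and -0.76 at 12 h.

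TGFB2, the TGF-beta isoform that depends most on the co-receptor TGFBR3, was near its untreated level at 3 h and lower at 6 h. Its Cy5 signal was 476.5 units in untreated cells, 468.5 at 3 h, 173 at 6 h and 283 at 12 h. The log2 changes were -0.089, -1.01 and -0.39. The 3 h array did not differ from the untreated array by more than the technical SD, and the 6 h array was the lowest of the 4 by 0.62 from its nearest neighbour, 12 h. At 6 h the fall was 2.02-fold, at the edge of the 2-fold line, and 0.905% of genes were as low. It reached 2-fold in all 10 alternatives, from -1.01 to -1.19. Those on damaged areas, dim probes and probe choice could not change it, as TGFB2 had 1 undamaged spot that passed the filter. TGFB1, the most widely expressed isoform, had Cy5 signals of 475, 389, 304.5 and 317 units. Its log2 changes were -0.41, -0.35 and -0.084, of which the last was within the technical SD. In the Cy5 channel alone TGFB1 was still 0.29 lower at 12 h, where its reference was 0.20 lower. The log2 change of TGFB1 was thus below that of TGFB2 by 0.32 at 3 h. It was above that of TGFB2 by 0.66 at 6 h and 0.31 at 12 h. The 3 h gap turned to 0.015 in 1 of 9 alternatives.

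The 6 h and 12 h arrays had next to no damage, and the technical SD between them was 0.0782. At 12 h the log2 ratio was higher than at 6 h by 0.62 for TGFB2, 0.54 for ID3, 0.44 for ID1, 0.33 for ID2, 0.27 for TGFB1, 0.25 for INHBA and 0.15 for SMAD7. The difference was -0.15 for ID4 and -0.20 for SMAD6. The median of all 20717 genes measured was -0.0056. For TGFB2 and ID3 0.386% and 0.71% of genes gained as much, and for INHBA, the member that had fallen most at 6 h, 7.07% did. The direction held in all 9 alternatives for each member other than ID4, which was at 0.00094 in 1 of them. With median centring the gains were smaller, at 0.25 for ID1 and 0.11 for INHBA. The second ID2 probe gained 0.17. For INHBA the 10 spots gave 0.252 ± 0.0673 (SD), from 0.118 to 0.331.

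**Figure D3:**
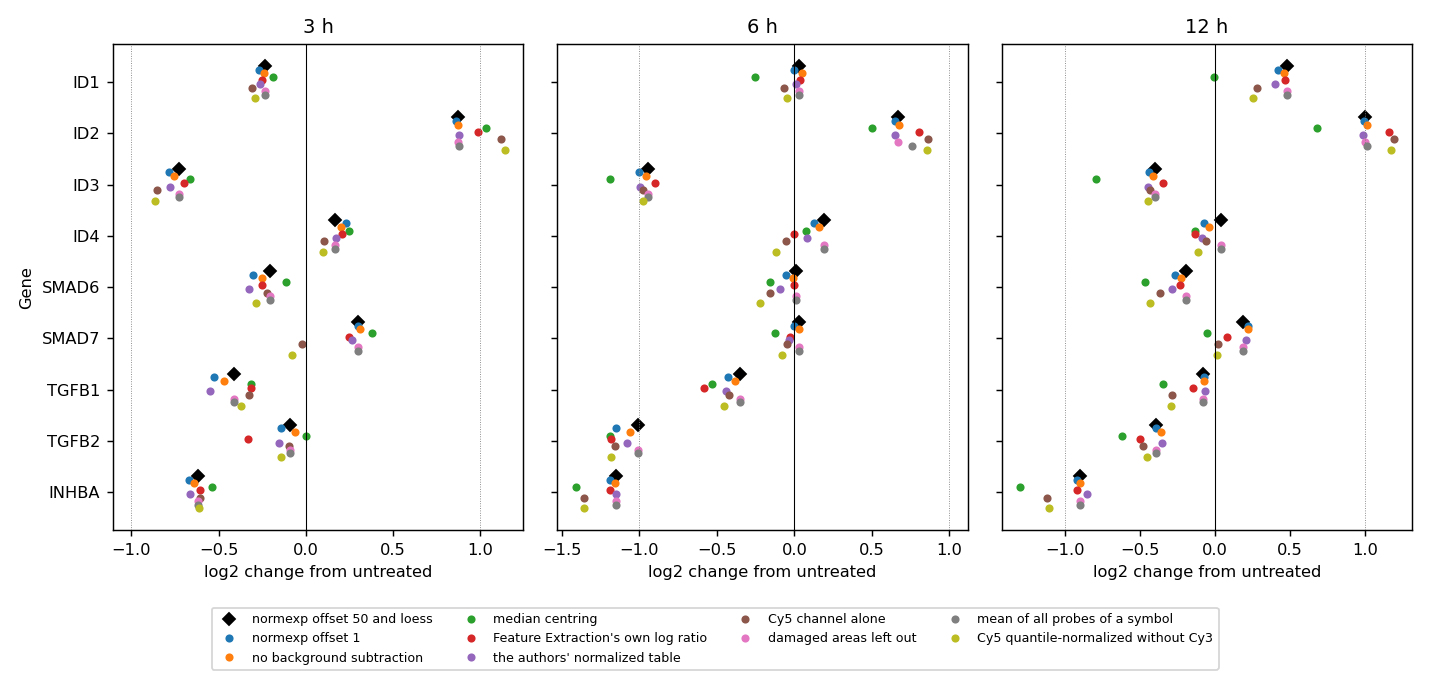
Log2 change from the untreated array of each of the 9 genes at 3, 6 and 12 h under the reported processing (black diamonds) and 9 other ways of processing (coloured circles), with dotted lines at 2-fold. INHBA and ID3 stay below 0 and ID2 above 0 throughout, INHBA and TGFB2 are at or beyond 2-fold at 6 h in every setting, and ID1 at 12 h runs from -0.0062 to 0.475.

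The level of Cy5 against Cy3 showed how the samples stood to their reference. INHBA was 15-fold above Cy3 in untreated cells and 6.74-fold above it at 6 h, where it was lowest. TGFB2 ranged from 1.88-fold to 3.79-fold and ID3 from 1.53-fold to 2.94-fold above Cy3. ID4 and SMAD6 were below Cy3 on all 4 arrays, with ratios of 0.391 to 0.447 and 0.421 to 0.488. In all, 6 members were above a ratio of 1 on all 4 arrays and 2 below it, and ID2 crossed it. Over all genes well above background 72.7% lay on 1 side. A pool of the 4 samples would hold a level between their extremes, but loess sets the ratio of 1 and dyes can differ by gene. For INHBA the channels were apart before loess as well. Its median raw signals were 13199.5 units in Cy5 and 558 in Cy3 in untreated cells, and 4192.5 and 494 at 6 h. What the Cy3 channel holds was not tested here, and changes between arrays do not depend on it as long as it is the same RNA on each.

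A wider list of 58 TGF-beta and BMP genes, all present on the array, was read beside the members. At 3 h 1 of 54 measured genes rose 2-fold and 0 fell. At 6 h 3 of 53 rose and 2 fell, and at 12 h 2 of 53 rose and 1 fell. Over all genes 1.69% rose and 0.366% fell at 3 h, 2.81% and 0.939% at 6 h, and 2.34% and 1.12% at 12 h. The medians of the list were 0.069, 0.097 and 0.086, beside 0.0075, 0.016 and 0.014 for all genes. NODAL, ACVRL1, BMPR1B and CDKN2B were not measured at any time, ACVR1B was not at 6 h, and LTBP2 was not at 12 h.

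The 9 targets measured had medians of 0.17, 0.28 and 0.27, and 1, 2 and 1 of them rose 2-fold at 3, 6 and 12 h. CTGF, a matricellular protein induced by TGF-beta and by YAP, rose most. In Cy5 it read 126, 305, 725 and 440 units at 0, 3, 6 and 12 h, with log2 changes of 0.79, 2.18 and 1.57. HEY1, a repressor induced by Notch and BMP signals, had Cy5 signals of 186.5, 553, 546.5 and 279 units and log2 changes of 1.21, 1.59 and 0.95. The other 7 measured targets did not reach 2-fold at any time. For THBS1 and ATOH8 the 2 probes disagreed in sign at all 3 times, so no direction is given. The target median at 6 h was the value of THBS1 itself, and that at 12 h was the value of ATOH8. Both medians thus rest on the choice of probe.

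Among ligands, BMP6, which signals through SMAD1 and its relatives, had Cy5 signals of 76, 124, 213.5 and 189 units. Its log2 changes were 0.45, 1.26 and 1.24. BMP6 rose while the listed ligands had medians of 0.015, 0.16 and 0.30 over 9 measured. Among SMADs, SMAD1, the BMP-activated SMAD, fell. In Cy5 it read 413, 253.5, 170 and 177 units, with log2 changes of -0.77, -1.11 and -0.88. The other 5 SMADs did not reach 2-fold. For SMAD4 the 2 probes disagreed in sign at 3, 6 and 12 h, with -0.31 and 0.79 at 3 h, so no direction is given.

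Among inhibitors, FSTL3, a secreted protein that binds and neutralizes activin, had Cy5 signals of 2048, 1365, 705.5 and 714 units and log2 changes of -0.56, -1.13 and -1.0. INHBA, which encodes a subunit of its ligand, had -0.62, -1.15 and -0.90 at the same times. Both were lowest at 6 h. The remaining 12 inhibitors did not reach 2-fold. CTGF, HEY1, BMP6, FSTL3 and SMAD1 were each read by 1 probe with 1 spot, and none of these spots lay in a damaged area. Their signs held in all 9 alternatives at 3, 6 and 12 h. At 6 h the alternatives ran from 2.18 to 2.71 for CTGF, from 1.51 to 1.79 for HEY1 and from 1.19 to 1.82 for BMP6. SMAD1 at 6 h ran from -1.37 to -0.97, and its 2-fold call was lost in the Cy5 channel alone. FSTL3 ran from -1.38 to -1.13 at 6 h and from -1.37 to -0.99 at 12 h, where its call was lost at the upper end.

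The receptors had medians of 0.24, 0.51 and 0.24, and none reached 2-fold. The 4 probes of BMPR1A ran from -0.079 to 0.61 at 6 h, and the BMPR2 spot lay in a damaged area at 3 h. TGFBR3, a co-receptor that presents TGF-beta2 to the signalling receptors, named after its values were seen, came closest, with 0.64, 0.997 and 0.96. Of the 3 partners of the ID proteins, also named after their values were seen, TCF12 had log2 changes of 0.81, 0.61 and 0.28, TCF4 of 0.11, -0.16 and 0.00079, and TCF3 of -0.16, -0.25 and -0.40. The 4 latency genes, which hold TGF-beta in the matrix, had medians of -0.028, -0.069 and -0.052.

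**Figure D4:**
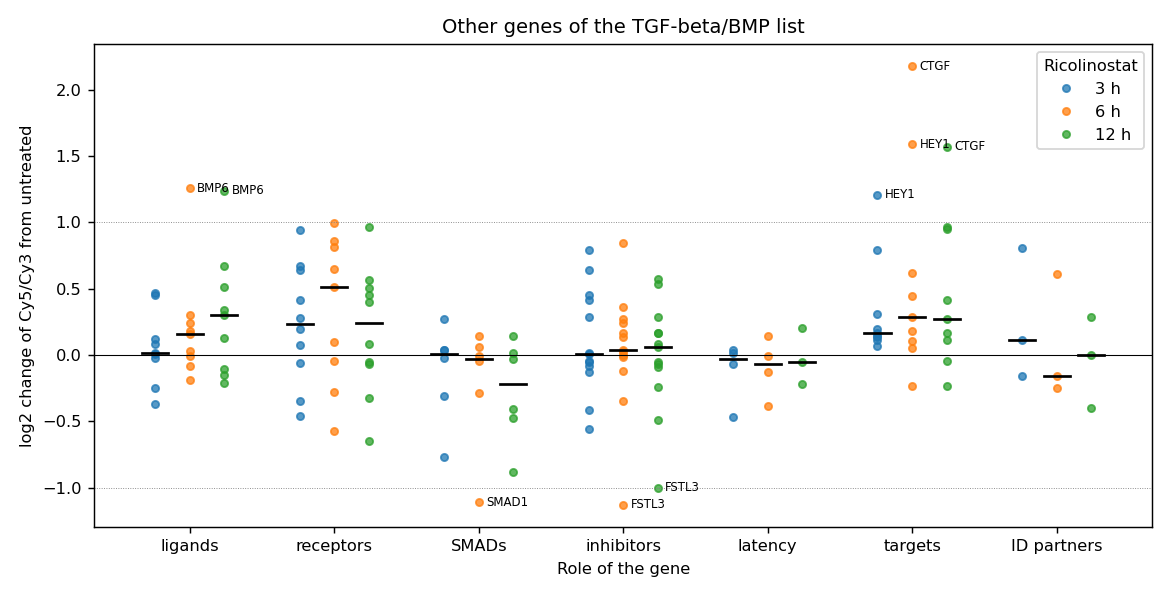
Log2 change from the untreated array for the measured genes of the list of 58 other TGF-beta and BMP genes, grouped by role, at 3 h (blue), 6 h (orange) and 12 h (green), with black bars at the medians and dotted lines at 2-fold. Named points reached 2-fold, and they are CTGF, HEY1 and BMP6 above and SMAD1 and FSTL3 below.

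The genes most like INHBA, the member that changed most, were sought among the 19891 genes that cleared background on every array, by the Euclidean distance over the 3 changes. SNHG20, a long noncoding RNA, was nearest (distance 0.0784), with log2 changes of -0.64, -1.10 and -0.95. C6orf136 came next (0.0972), with -0.60, -1.19 and -0.82, and then AP5S1 (0.0987), a subunit of an adaptor complex, with -0.59, -1.15 and -1.0. All 3 likenesses rest on 3 values that share the untreated array. In AP5S1 the Cy3 reference itself was 0.81 lower at 3 h. Within the members the nearest pair was ID4 and SMAD7 (0.252), both close to 0, and the farthest was ID2 and INHBA (3.03).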

How the data were processed

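RNA of untreated SUM149 cells and of cells after 3, 6 and 12 h with 2.5 uM of ACY1215 was hybridised to 4 two-colour arrays, 1 per condition. RNA was extracted on columns, labelled with a low-input kit, and read with Feature Extraction 12.0.1.1 per the file headers. The authors deposited the intensity of each spot and its local background as medians over pixels, and a log10 ratio of the channels, deposited as that software corrected it. The authors also deposited a table of log2 ratios, whose normalization is not given in the sources used here. Over probes its correlation with log2 ratios of Cy5 over Cy3 after a normexp offset of 1 was 0.995 or more on each array, higher than with an offset of 50, and the slope was 0.929 to 0.945. The direction is therefore Cy5 over Cy3, and the slope is close to that of a log2 scale. The medians of its columns were 0.0632, 0.0589, 0.0423 and 0.0443.

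Background was corrected by normexp (offset 50) in limma 3.58.1 and R 4.3.3. Control spots (2075) were left out, outlier spots set aside, arrays normalized by loess and average intensities equalised. Repeated spots were averaged, and where a gene had several probes the one brightest in Cy3 stood for it. A gene counted as measured when both channels were well above background on the 2 arrays compared, and as changed at 2-fold. The normalization was tested on data simulated from the untreated array, and the recovery of changes in dim spots is not reported here. Tables were made in Python 3.11.15 with numpy 2.4.6 and pandas 2.3.3.

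With 1 array per condition no test was made. The members and lists were chosen with earlier results of these data known. Named are the 9 members, the genes of the list of 58 that reached 2-fold (at most 10) and the 3 genes most like the member with the largest change, and any other gene was picked with its values known. Alternatives covered background, normalization, channel, damaged areas, dim probes, probe choice and threshold. Promoter windows come from RefSeq (GRCh38.p14), while the array was designed on another build, so probes have no coordinates here.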

Additional observations from a re-analysis of the deposited data

How the results depend on the processing

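With 1 array per time point, no replicate could be left out. No paired analysis was possible because a condition was read on 1 array only. At the time at which a member had reached 2-fold, its value changed sign under none of the 10 alternatives. CTGF, HEY1, BMP6, FSTL3 and SMAD1 kept their signs at 3, 6 and 12 h under 9 alternatives. Not all of these could move a value. Leaving out damaged areas or the filter on dim probes altered no member, and averaging probes altered ID2 only. For CTGF, HEY1, BMP6, FSTL3 and SMAD1, with 1 undamaged probe each, leaving out damage and averaging probes could not alter the value. Causes of shifts were not tested. The count of members risen 2-fold at 12 h was 0 in the authors' table, with a normexp offset of 1 and with median centring. With median centring, 1 member rose at 3 h and 1 fell at 12 h, beside 521 of 20766 and 704 of 20479 genes. The median log2 change of the members was then -0.25 at 6 h and -0.35 at 12 h, where all genes had medians of -0.084 and -0.16. The member medians thus lay below that shift. In the Cy5 channel alone 1 member rose at 3 h and 1 fell at 12 h, beside 281 of 20766 and 314 of 20479 genes. The member medians there were -0.16 at 6 h and -0.29 at 12 h. With Cy5 quantile-normalized without Cy3, a setting chosen after seeing the data, 1 member rose at 3 h and 1 fell at 12 h. Over all genes 270 of 20766 and 370 of 20479 did so. The member medians were -0.22 at 6 h and -0.30 at 12 h. At 1.5-fold 1 member rose and 2 fell at 3 h, 1 rose and 3 fell at 6 h, and 1 rose and 1 fell at 12 h. The counts over all genes moved more than 1.5 times under several of these. With a normexp offset of 1, 688 rose and 230 fell at 3 h, 1019 and 467 at 6 h, and 918 and 518 at 12 h, and with median centring 404 fell at 6 h and 263 rose and 704 fell at 12 h. With Feature Extraction's log ratio 677 and 397, 1127 and 638, and 1032 and 706 rose and fell at 3, 6 and 12 h. The authors' normalized ratios gave 531 and 186 at 3 h, 408 that fell at 6 h, and 751 and 450 at 12 h. Without background subtraction 542 rose and 130 fell at 3 h and 294 fell at 6 h. Cy5 alone gave 244 falls at 3 h, and after quantile normalization 270 rose and 319 fell at 3 h and 486 and 370 at 12 h, and outside damaged areas 217 rose at 3 h. At 1.5-fold 1427 rose and 406 fell of 20766 genes at 3 h, 1912 and 900 of 20342 at 6 h, and 1657 and 1050 of 20479 at 12 h. Signs at 1 or more times changed for 5 members, ID1, ID4, SMAD6, SMAD7 and TGFB2, and the largest reported change whose sign turned was 0.47 for ID1 at 12 h. Signal over background was low for ID4, with Cy5 signals of 53.5 to 80 units.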
